A study of Mus musculus with 21 samples.

Results

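The genes for muscarinic and nicotinic acetylcholine receptors were compared between the subcommissural organ (SCO) and the hippocampus of newborn mice. The set was named by gene symbol and held 10 genes: 5 muscarinic receptors (Chrm1, Chrm2, Chrm3, Chrm4 and Chrm5) and 5 subunits of neuronal nicotinic receptors (Chrna3, Chrna4, Chrna7, Chrnb2 and Chrnb4). Of these, 9 had a row in the table of 31883 genes, and all 9 passed the filter on low values that left 28150 genes for testing. Chrm4 is not analysed here. Both groups were C57BL/6 mice on postnatal day 0 (P0), with 5 hippocampus and 4 SCO libraries of total RNA. The labels name no genotype, allele or treatment. Nor do they say whether libraries came from separate animals or from pools, so a p-value here measures only how libraries vary, and that variation may be technical. Samples taken on postnatal day 60 are not analysed here.

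Acetylcholine acts through 2 receptor families. Muscarinic receptors are G protein-coupled: M1, M3 and M5 couple mainly to Gq, which activates phospholipase C and closes M-type potassium channels, while M2 and M4 couple mainly to Gi and Go, which inhibit adenylyl cyclase and open inward rectifier potassium channels. Nicotinic receptors are pentameric cation channels, built in the brain from alpha7 subunits alone, from alpha4 with beta2, or, in the medial habenula and in autonomic ganglia, from alpha3 with beta4. The SCO is an ependymal gland in the roof of the third ventricle that secretes SCO-spondin, and it lies beside the habenula and the pretectum. The hippocampus receives cholinergic fibres from the septum and is a classical site of M1 and alpha7 expression.

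Promoter sequence was available from RefSeq (build GRCm38.p6) for 8 of the 9 receptor genes in the table. Chrm1 was not matched. The windows of the other 3 genes that passed the test between tissues are shown because these are the genes whose level differed. Each is the 250 bases before the annotated start, read 5′ to 3′ on the gene's strand, at chr6:36387834-36388083 (+) for Chrm2, chr9:55026563-55026812 (-) for Chrna3 and chr7:63212527-63212776 (-) for Chrna7. Capitals mark matches on either strand to 4 motifs: GGGCGG (a GC box), CAGCTG (an E-box), CCAAT and TATAAA.
Chrm2: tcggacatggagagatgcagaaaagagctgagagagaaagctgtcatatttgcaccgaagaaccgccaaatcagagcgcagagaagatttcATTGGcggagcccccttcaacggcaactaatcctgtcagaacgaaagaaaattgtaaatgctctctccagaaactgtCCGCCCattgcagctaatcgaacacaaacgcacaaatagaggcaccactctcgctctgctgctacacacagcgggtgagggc
Chrna3: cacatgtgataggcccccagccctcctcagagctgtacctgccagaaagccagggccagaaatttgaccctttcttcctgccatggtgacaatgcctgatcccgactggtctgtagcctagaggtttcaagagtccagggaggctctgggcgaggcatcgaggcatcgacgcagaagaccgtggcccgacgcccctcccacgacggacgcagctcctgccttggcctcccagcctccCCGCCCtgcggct
Chrna7: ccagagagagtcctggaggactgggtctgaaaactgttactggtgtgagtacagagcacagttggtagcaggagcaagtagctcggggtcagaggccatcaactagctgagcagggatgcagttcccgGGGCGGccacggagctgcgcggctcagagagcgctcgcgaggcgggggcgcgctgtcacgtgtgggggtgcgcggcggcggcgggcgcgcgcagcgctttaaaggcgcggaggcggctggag

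All 3 windows held 1 GC box match, and Chrm2 held 1 CCAAT match besides. A GC box match was present in 32.7% of the 32851 mouse promoter windows of this length, a CCAAT match in 33.8%, the E-box in 13% and TATAAA in 12.4%. The windows of Chrna7, Chrna3 and Chrm2 had a GC content of 67.2%, 63.2% and 50%, with 25, 13 and 12 CpG dinucleotides, against medians of 52.4% and 6 over all windows. The Chrna4 window, at 74.4% GC with 24 CpG and 3 GC box matches, resembled that of Chrna7 in these measures, and the Chrm5 window was the poorest of the 8, at 37.6% with 2. The bases after its annotated start matched no GENCODE transcript of Chrm5, unlike those of the other windows, so its place is uncertain. A match describes the letters of the window and not a site of binding. The 2 genes higher in SCO and the 1 lower carried the GC box match alike.

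Of the 9 genes, 4 differed between the tissues, 2 muscarinic and 2 nicotinic. Chrm1 (the M1 receptor) and Chrna7 (the alpha7 subunit) were lower in SCO, and Chrm2 (the M2 receptor) and Chrna3 (the alpha3 subunit) were higher. For the other 5, Chrm3, Chrm5, Chrna4, Chrnb2 and Chrnb4, the difference did not pass the test. Values are normalized counts, meaning reads on a gene scaled by the size factor of the library. A gene was called at an adjusted p under 0.05 in limma, fitted on log2(value + 1) over all genes tested, and every log2 fold change is SCO minus hippocampus on that scale. By this rule 2 of the 9 were lower, where 1.34% of all genes tested were, and 2 were higher, where 1.71% were. The 4 SCO libraries lay wholly below the 5 hippocampus libraries for 2 of the 9 (Chrm1 and Chrna7), where this held for 3.75% of all genes, and wholly above them for 3 (Chrm2, Chrna3 and Chrnb2), where it held for 4.78%. Without the library SCO 4 and the library hippocampus 2, a pair singled out in earlier work on this table, 2 were lower and 1 (Chrna3) was higher. Chrm2 and Chrnb2 each share reads with an overlapping gene. With all reads of that gene taken off, neither kept every SCO library above hippocampus, and Chrm2 was not called.

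**Figure D1:**
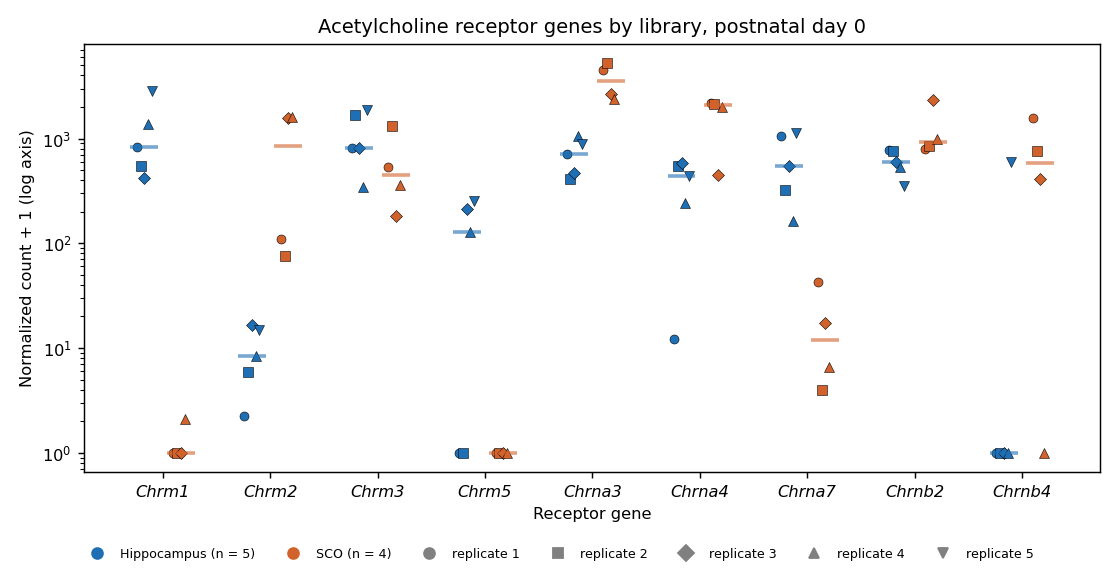
Normalized count + 1 on a log axis for each of the 9 receptor genes, with 1 point per library (blue, 5 hippocampus; orange, 4 SCO; marker shape, replicate number) and a bar at the group median. Chrm1 and Chrna7 lie higher in every hippocampus library, Chrm2 and Chrna3 in every SCO library, and Chrnb4 is at 0 in 4 hippocampus libraries and in SCO 4.

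Markers of both tissues were chosen with earlier results of these data known. Their values thus describe the libraries and are no independent check of tissue identity. Of 10 SCO markers, 6 were higher in SCO, among them Sspo, which encodes SCO-spondin, and of 13 markers of excitatory hippocampal and cortical neurons 11 were lower. Depth was 35379988 to 151009954 reads per library. For every gene nested inside another and holding at least 10 reads, the outer gene had at least as many reads in all 12903 library comparisons on the same strand and all 15965 on opposite strands. The values thus behave as counts over whole gene bodies, without strand, with a read counted for each gene it overlaps. For most genes that overlap a neighbour, that limit is given below with the values. Chrm1 also overlaps Gm22820, which had at most 70.4 in any library, and Chrna7 overlaps Gm44741, which had at most 48.7. With those reads taken off, both were still called lower, with log2 fold changes of -9.58 and -5.41. Chrne, a muscle subunit gene described below, overlaps 4930544D05Rik, which had 23.6 in SCO 2 and 0 in the other libraries. In whole tissue, fewer cells of a type and less RNA per cell cannot be told apart.

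Among the Gq-coupled muscarinic receptors, Chrm1 (chromosome 19, 8663789 to 8683587) had normalized counts of 834, 550, 415, 1362 and 2845 in hippocampus 1 to 5. In SCO 1 to 3 it was at 0, and in SCO 4 it had a single read, a value of 1.12. The tissues did not overlap, and the gene was near or at 0 in the whole of SCO. In limma the log2 fold change came to -9.61 ± 0.88 (SE), with an adjusted p of 0.000442, and the hippocampus mean was 4292 times the SCO mean, with a 95% interval of 770.3 to 169524 that covers the counting error of the 1 SCO read only. The authors' deposited table gives a log2 fold change of -11.66 with an adjusted p of 3.14e-18. Leaving out each library in turn kept the call, at an adjusted p of 0.00103 to 0.00342.

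Chrm3 (chromosome 13, 9875486 to 10360847), the M3 receptor, had 815, 1674, 816, 341 and 1854 in hippocampus and 531, 1325, 182 and 356 in SCO. The libraries overlapped widely, and SCO 2 lay above 3 of the hippocampus libraries. Its log2 fold change of -1.01 had a 95% interval of -2.49 to 0.47 and did not pass (limma adjusted p = 0.527). This gene spans 3 small annotated transcripts with rows of their own (Gm47411, Gm47405 and Gm26861), and taking off their reads left 684, 1548, 801, 323 and 1797 in hippocampus and 531, 982, 174 and 345 in SCO.

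Chrm5 (chromosome 2, 112479171 to 112480769), the M5 receptor, was listed at 0 in hippocampus 1 and 2 and at 210.5, 128 and 249.6 in hippocampus 3 to 5. All 4 SCO libraries were at 0. The 2 hippocampus libraries at 0 therefore overlapped the SCO libraries. A log2 fold change of -4.54 had a 95% interval of -8.74 to -0.35 and did not pass (limma adjusted p = 0.278). Against a floor of 3 reads per library, the hippocampus mean places the gene at least 31.3-fold lower in SCO. In the authors' deposited table it has a log2 fold change of -9.03 and an adjusted p of 0.0140. DESeq2 run on the recovered reads gave the same log2 fold change, at an adjusted p of 0.0138, and is not independent of that table. In edgeR the adjusted p was 0.201. The authors' deposited table calls 12.7% of the 21475 genes to which it gives an adjusted p, and among the receptors it calls Chrm1, Chrm2, Chrm5, Chrna3 and Chrna7. A gene with a mean of 100 to 1000 was at 0 in at least 2 of the 5 hippocampus libraries in 4.95% of cases.

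Chrm2 (chromosome 6, 36388084 to 36528414), the Gi-coupled M2 receptor, had 1.25, 4.95, 15.5, 7.31 and 13.7 in hippocampus, which are 1, 3, 15, 20 and 36 reads. In SCO it had 109, 73.8, 1567 and 1604. All SCO libraries were above all hippocampus libraries, and SCO 3 and SCO 4 stood far above SCO 1 and SCO 2. In limma the difference was 5.62 ± 1.24 on the log2 scale (SE), with an adjusted p of 0.0374. The call ended when any 1 of hippocampus 1 to 5, SCO 3 or SCO 4 was left out, with adjusted p-values from 0.0542 to 0.116, and the authors' deposited table gives 6.60 with an adjusted p of 4.06e-09.

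A long noncoding RNA on the opposite strand, 9330158H04Rik, overlaps Chrm2 over 2108 bases and was itself higher in SCO (log2 fold change 6.16, limma adjusted p = 0.0239), with values of 373, 151, 268 and 187 in SCO 1 to 4. Taking off its reads left Chrm2 at 0 in SCO 1 and SCO 2 and at 1298 and 1417 in SCO 3 and SCO 4, with a log2 fold change of 3.23 (limma adjusted p = 0.583). These are lower limits, since some of those reads lie outside Chrm2. At most 268 and 187 of the values in SCO 3 and SCO 4 could thus come from the antisense transcript, while in SCO 1 and SCO 2 the reads of the 2 genes cannot be told apart.

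**Figure D2:**
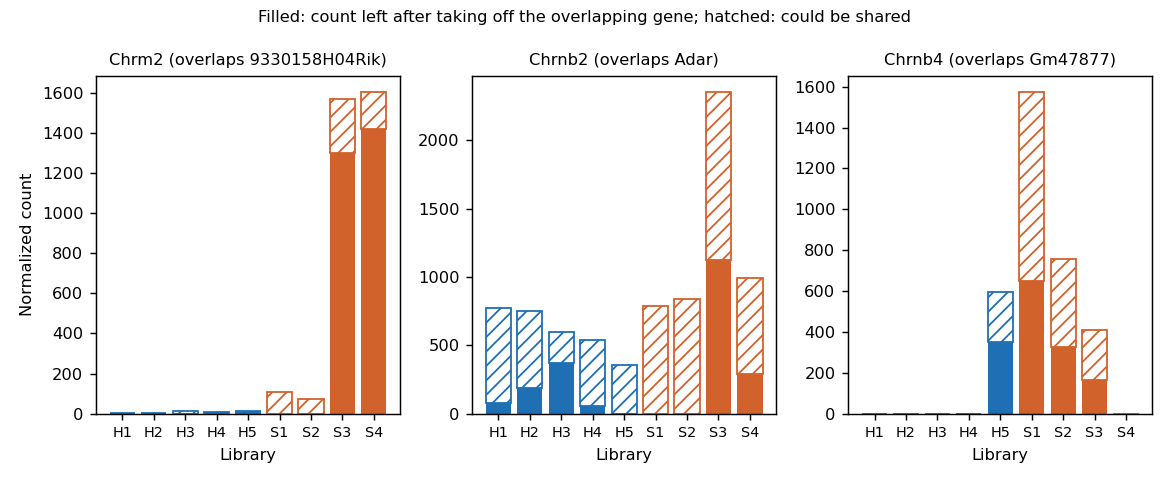
Normalized count of Chrm2, Chrnb2 and Chrnb4 in each library (H1 to H5, hippocampus; S1 to S4, SCO), where the filled part of a bar is what is left after taking off all reads of the overlapping gene and the hatched part could belong to either. Chrm2 keeps 1298 and 1417 in SCO 3 and SCO 4 and none in SCO 1 and SCO 2, and Chrnb2 keeps none in hippocampus 5, SCO 1 and SCO 2.

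Among the nicotinic subunits, Chrna7 (chromosome 7, 63098692 to 63212569), which forms the homomeric alpha7 receptor, had 1049, 324, 544, 163 and 1117 in hippocampus. In SCO it had 41.8, 2.95, 16.4 and 5.60, which are 28, 2, 18 and 5 reads. The lowest hippocampus library was above the highest SCO library. This is a log2 fold change of -5.43 ± 0.95 (SE), with a limma adjusted p of 0.0133. The mean was 38.3 times as high in hippocampus. With 1 library left out the ratio ran from 30.1 (without SCO 2) to 76.7 (without SCO 1). The call held with each library left out, at adjusted p-values of 0.0116 to 0.0454, and the authors' deposited table gives -5.27 with 2.12e-08.

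Chrna3 (chromosome 9, 55010111 to 55026562), the ligand-binding partner of beta4, had 715, 413, 463, 1066 and 879.8 in hippocampus and 4494, 5207, 2638 and 2376 in SCO. Every SCO library was above every hippocampus library, with SCO 1 and SCO 2 the highest. The mean was 5.20 times as high in SCO, with a log2 fold change of 2.39 ± 0.40 (SE) and a limma adjusted p of 0.0106. It stayed between 2.20 and 2.57 with each library left out, at adjusted p-values of 0.0137 to 0.0361, and the authors' deposited table gives 2.38. No other gene in the table overlaps Chrna3, so its reads are shared with none.

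Chrnb4 (chromosome 9, 55028154 to 55048779), the beta4 subunit, lies next to Chrna3 on the same strand. It was at 0 in hippocampus 1 to 4 and at 595 in hippocampus 5, and had 1574, 757, 408 and 0 in SCO 1 to 4. Each tissue thus held libraries at 0 and libraries well above it. Its log2 fold change of 5.37 had a 95% interval of -0.36 to 11.10 (limma adjusted p = 0.355). The antisense gene Gm47877 lies inside Chrnb4, so with this counting each of its reads is also a read of Chrnb4. It had 0, 0, 0, 0 and 245 in hippocampus and 927, 433, 243 and 0 in SCO. Without its reads Chrnb4 had 350.5 in hippocampus 5 and 648, 325 and 165 in SCO 1 to 3.

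The third gene of this chromosome 9 cluster, Chrna5 (54980880 to 55007779, opposite strand), encodes an accessory subunit that joins receptors of other subunits. It had 0, 29.7, 7.22, 139.7 and 0.381 in hippocampus and 1.49, 19.2, 0 and 1.12 in SCO, and its difference did not pass (log2 fold change -1.43, limma adjusted p = 0.671). Of the 8 genes with a row in the cluster and within 100000 bases of it, 1 passed the test, Chrna3 itself. Ireb2, Hykk, AY074887, Psma4 and Gm47877 had log2 fold changes of -0.68, -2.60, -0.20, -0.45 and 5.05, the last from reads shared with Chrnb4.

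Chrna4 (chromosome 2, 181018380 to 181043546), the alpha4 subunit of the main heteromeric receptor of the brain, had 11.2, 543, 582, 243 and 440 in hippocampus and 2180, 2156, 447 and 1994 in SCO. SCO 1, SCO 2 and SCO 4 were above every hippocampus library, and SCO 3 lay within the hippocampus range. The difference was 2.76 on the log2 scale with a 95% interval of 0.30 to 5.22 and did not pass (limma adjusted p = 0.257). The authors' deposited table gives 2.22 and 0.0607.

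Chrnb2 (chromosome 3, 89746195 to 89764632), the beta2 partner of alpha4, had 771, 753, 594, 537 and 353 in hippocampus and 785, 840.2, 2355 and 992 in SCO. The tissues did not overlap, by a narrow margin between hippocampus 1 and SCO 1, and SCO 3 was the highest. A log2 fold change of 0.94 had a 95% interval of -0.04 to 1.92 (limma adjusted p = 0.342). Chrnb2 overlaps Adar, an RNA-editing enzyme gene on the other strand, over 7252 bases. Adar had 695, 563, 221, 483 and 399 in hippocampus and 903, 1062, 1233 and 700 in SCO. Without the reads of Adar, Chrnb2 had at least 76.1, 189.8, 374, 53.4 and 0 in hippocampus and 0, 0, 1122 and 292 in SCO, and the log2 fold change became -1.05 (limma adjusted p = 0.859), so no direction is given for this gene.

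**Figure D3:**
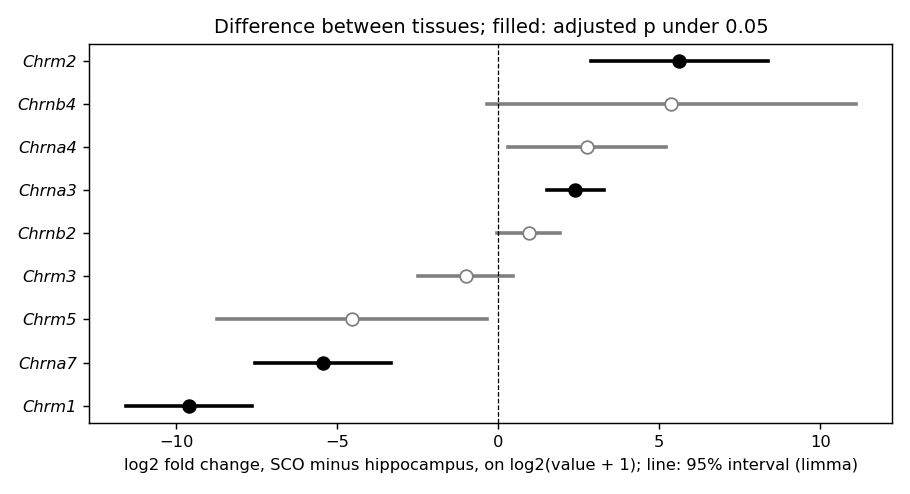
Log2 fold change of each receptor gene, SCO minus hippocampus on log2(value + 1), with its 95% interval from limma; filled points passed at an adjusted p under 0.05. Chrm1 (-9.61) and Chrna7 (-5.43) are lower in SCO and Chrna3 (2.39) and Chrm2 (5.62) higher, and the widest interval, that of Chrnb4, runs from -0.36 to 11.10.

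Levels were compared between genes only per length, as reads per kilobase of exon scaled to the total reads of the library (RPKM). In hippocampus the mean RPKM was 3.35 for Chrm1, 3.12 for Chrm3, 2.57 for Chrna7 and 2.42 for Chrna3, then 1.34 for Chrm5 and 1.28 for both Chrna4 and Chrnb2, 0.586 for Chrnb4 and 0.0254 for Chrm2. The ranges of all neighbours in this order overlapped. Chrnb4 owed its mean to hippocampus 5 and was below Chrm2 in the other 4 libraries, where it was at 0. The highest Chrm2 value, 0.0464, was below the lowest of Chrm1 (1.16), Chrm3 (0.987), Chrna7 (0.654), Chrna3 (1.29) and Chrnb2 (0.773). In SCO the mean RPKM was 12.8 for Chrna3, 6.19 for Chrna4, 3.42 for Chrnb4, 2.63 for Chrnb2, 2.42 for Chrm2, 1.77 for Chrm3, 0.0680 for Chrna7 and 0.000762 for Chrm1, with Chrm5 at 0. Chrna3 was above Chrna4 in 4 of 4 SCO libraries, although their ranges overlapped. The ranges of Chrm3 and Chrna7, and of Chrna7 and Chrm1, did not overlap in SCO on this scale.

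Because reads were counted over gene bodies, the level per kilobase of the whole gene span was computed too, and it reordered the genes in hippocampus, with Chrm5 first at 1.34, Chrm1 second at 1.10 and Chrm3 eighth at 0.0402. In SCO Chrna3 was first on that scale as well, at 4.09, with no overlap with Chrna4 at 1.24, and Chrm2, Chrm3, Chrna7, Chrm1 and Chrm5 held the last 5 places. On the span scale the SCO ranges of Chrm3 and Chrna7, and of Chrna7 and Chrm1, overlapped. By mean, Chrm2 was last in hippocampus on both scales, above Chrnb4 in 4 of 5 libraries on each.

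Within the SCO libraries the receptor genes did not vary together. Chrna3, Chrnb4, Chrna4 and Chrm3 were highest in SCO 1 and SCO 2, and Chrm2 and Chrnb2 in SCO 3 and SCO 4. Chrna6 and Chrnb3, which encode subunits found in habenular and dopaminergic neurons, were also highest in SCO 1 and SCO 2. Chrna6 was at 0 in all hippocampus libraries and had 564, 694, 0 and 0 in SCO. Its difference did not pass (limma adjusted p = 0.312), and against a floor of 3 reads per library its mean was at least 112-fold higher in SCO, or at least 67.0-fold without SCO 2. The authors' deposited table calls it, with a log2 fold change of 25.25 and an adjusted p of 1.16e-13. Chrnb3 had at most 0.366 in hippocampus and 19.4, 371, 0.913 and 0 in SCO (limma adjusted p = 0.330).

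Some markers of other neurons moved with these 2 patterns. Of 12 medial habenula markers, 2 were higher in SCO and 1 lower, and their summed level was 33545 and 18780 in SCO 1 and SCO 2, 6976 and 6820 in SCO 3 and SCO 4, and 9452 to 14758 in hippocampus. Of the 12, 7 were highest in SCO 1 and SCO 2, among them Gpr151 (3552, 1527, 0 and 0) and Pou4f1 (4504, 2955, 0 and 114). The other 5 were not, among them Tac1 (3090, 3105, 3640 and 3536), Wif1 (1434, 272, 1027 and 299) and Chat. Chrna3 had 2638 and 2376 in SCO 3 and SCO 4, and Gpr151 was at 0 in both. Of 13 pretectal, thalamic and midbrain markers, 6 were higher in SCO and 0 lower, with a summed level of 47420 to 88272 against 1884 to 4669 in hippocampus. Of the 13, 7 were highest in SCO 3 and SCO 4. The share of all genes with either pattern was not computed, so these counts do not tell whether a list stands out. Gata3, a transcription factor of midbrain GABAergic neurons, had 1425, 1113, 2820 and 8755 in SCO, and Gad1, which makes GABA, had 2824, 8703, 23585 and 41842. Both were highest in SCO 3 and SCO 4, as Chrm2 was, but this pattern was not limited to such neurons. It held for 6 of 10 pan-neuronal and 5 of 10 forebrain GABAergic markers. The same was true of 3 of 8 choroid plexus markers and 3 of 8 microglia and macrophage markers. Lhx9 and Gbx2 of the pretectal, thalamic and midbrain list, and Lhx6 of the GABAergic list, were highest in SCO 1 and SCO 2. So were 4 of 10 SCO markers (Pax6, Msx1, Wnt1 and Nup62cl), with 0 highest in SCO 3 and SCO 4 and 6 in neither pair. The SCO markers summed to 37965, 54546, 31351 and 23921 in SCO 1 to 4. Of 13 excitatory markers, 3 were highest in SCO 1 and SCO 2 and 1 in SCO 3 and SCO 4. The SCO 1 and SCO 2 pattern was thus not limited to the habenula list. Choroid plexus markers summed to 227264 in SCO 4 and to 17310 to 19668 in the other SCO libraries. Endothelial and blood markers (4 of 10 higher, 0 lower) summed to 48245 to 76646 in SCO and 11179 to 26330 in hippocampus. The 4 higher were the blood genes Hba-a1, Hbb-bs, Hbb-bt and Alas2, and no endothelial gene was called. Microglia and macrophage markers (1 of 8 higher, 0 lower) summed to 26094 to 34031 in SCO and 12048 to 18836 in hippocampus. The part of these cells in the receptor values was not tested.

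**Figure D4:**
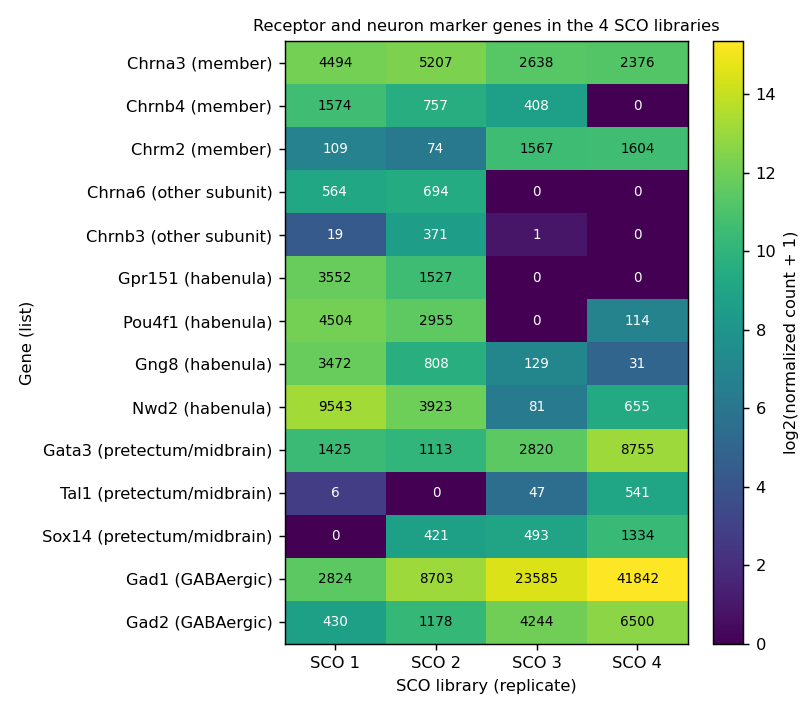
Normalized counts (numbers; colour, log2(value + 1)) of 3 receptor members, 2 other nicotinic subunits and 9 neuron markers in the 4 SCO libraries. Chrna3, Chrnb4 and Chrna6 share their highest libraries, SCO 1 and SCO 2, with Gpr151, Pou4f1, Gng8 and Nwd2. These are among the 7 of 12 habenula markers with this pattern and were picked after their values were seen. Chrna4, Chrm3 and 4 of 10 SCO markers, not drawn here, had it too. Chrm2 shares SCO 3 and SCO 4 with Gata3, Tal1, Gad1 and Gad2, which were picked likewise. In their lists, 7 of 13 pretectal, thalamic and midbrain markers and 5 of 10 forebrain GABAergic markers had that pattern. The share of all genes with either pattern was not computed.

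Markers of forebrain excitatory neurons also differed between the tissues. The summed level of the 13 excitatory markers was 125376 to 161554 in hippocampus and 6341 to 11762 in SCO. Of 10 markers of forebrain GABAergic interneurons, 4 were lower in SCO and 0 higher. Their summed level was 7879, 13821, 36569 and 61252 in SCO 1 to 4 and 23312 to 43713 in hippocampus, so the tissues overlapped. The 10 pan-neuronal markers summed to 387151 to 501268 in hippocampus and 181643 to 373336 in SCO, with 2 lower and 0 higher. The part of neuron number in the lower Chrm1 and Chrna7 was not tested.

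Among the other nicotinic subunits, 7 of the 10 in the table were tested, 1 was higher in SCO and 0 lower. Chrne, the epsilon subunit of the adult muscle receptor, had 1.25, 0, 0, 0.366 and 0.381 in hippocampus and 91.0, 97.5, 34.7 and 29.1 in SCO. All SCO libraries were above all hippocampus libraries, though at a low level. This log2 fold change of 5.39 ± 0.89 (SE) had a limma adjusted p of 0.00995, and edgeR gave an adjusted p of 0.0595. Of 6 skeletal muscle markers, 0 were higher and 0 lower, with a summed level of 496 to 1329 in SCO and 321 to 1332 in hippocampus, and the gamma and delta muscle subunits Chrng and Chrnd had at most 1.65 in any library.

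Of 8 genes tested for the synthesis, transport and breakdown of acetylcholine, 1 was higher in SCO and 0 lower. Slc5a7, the choline transporter of cholinergic terminals, had 0, 14.9, 0, 53.8 and 0 in hippocampus and 155, 1373, 695 and 228 in SCO (log2 fold change 6.80, limma adjusted p = 0.0362). The call held without hippocampus 2 or hippocampus 4 and ended without any 1 of the other 7 libraries, with adjusted p-values up to 0.106. In edgeR its adjusted p was 0.213. Chat, which makes acetylcholine, had 0, 0, 0, 7.31 and 0.381 in hippocampus and 53.7, 360.3, 0 and 146 in SCO (limma adjusted p = 0.191). Chat encloses Slc18a3, the vesicular acetylcholine transporter gene, and the exons of the 2 genes do not overlap. In SCO 2 and SCO 4 both genes had the same 244 and 130 reads. With a read counted for each gene it overlaps, all Chat reads in these libraries thus lay within Slc18a3. In SCO 1, Chat had 36 reads and Slc18a3 had 0. Ache, which breaks acetylcholine down, had 491 to 2738 in hippocampus and 2505 to 4389 in SCO (limma adjusted p = 0.222).

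Of 10 nicotinic receptor chaperones and Ly6 modulators, 0 passed in either direction. Ric3 and Tmem35a, which help alpha7 receptors assemble, had log2 fold changes of -0.48 and -0.56 (limma adjusted p = 0.629 and 0.404), beside the -5.43 of Chrna7. The tissues overlapped for both.

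Of 16 Gq and M-current effectors, 1 was higher and 2 were lower in SCO, and the list's median log2 fold change was -0.85, beside -0.04 over all genes tested. Rgs2, a regulator that shortens Gq signals, had 1551 to 3221 in hippocampus and 6642 to 9000 in SCO, without overlap (log2 fold change 1.89, limma adjusted p = 0.00360). Gna11, a Gq-family alpha subunit, had 8584 to 12089 in hippocampus and 3820 to 5402 in SCO (-1.07, adjusted p = 0.0199), a call that ended without hippocampus 1, 3 or 4 or without SCO 2 (adjusted p up to 0.0624). Kcnq3, a subunit of the M-type potassium channel that M1 receptors close, had 1102 to 3931 in hippocampus and 557 to 785 in SCO (-1.85, adjusted p = 0.0395), a call that held only without hippocampus 4 when 1 library was left out (adjusted p up to 0.100).

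Of 16 Gi and Go effectors, 2 were higher and 1 was lower, with a median log2 fold change of -0.05. Adcy1, a calcium-stimulated adenylyl cyclase of forebrain neurons, had 2145 to 3599 in hippocampus and 172 to 756 in SCO (log2 fold change -2.77, limma adjusted p = 0.00750). Adcy8, another calcium-stimulated cyclase, had 76.5 to 346 in hippocampus and 761 to 1552 in SCO (2.52, adjusted p = 0.0375), a call that held only without hippocampus 1 or 2 when 1 library was left out (adjusted p up to 0.108), and edgeR gave an adjusted p of 0.0688. Gng8, a G protein gamma subunit that is also on the medial habenula list, had at most 2.06 in hippocampus and 3472, 808, 129 and 31.3 in SCO (8.04, adjusted p = 0.0126). The inward rectifier genes Kcnj3, Kcnj5, Kcnj6 and Kcnj9, which M2 receptors open through G proteins, had log2 fold changes of -4.51, 0.77, 0.86 and -0.32, and 0 of the 4 passed.

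**Figure D5:**
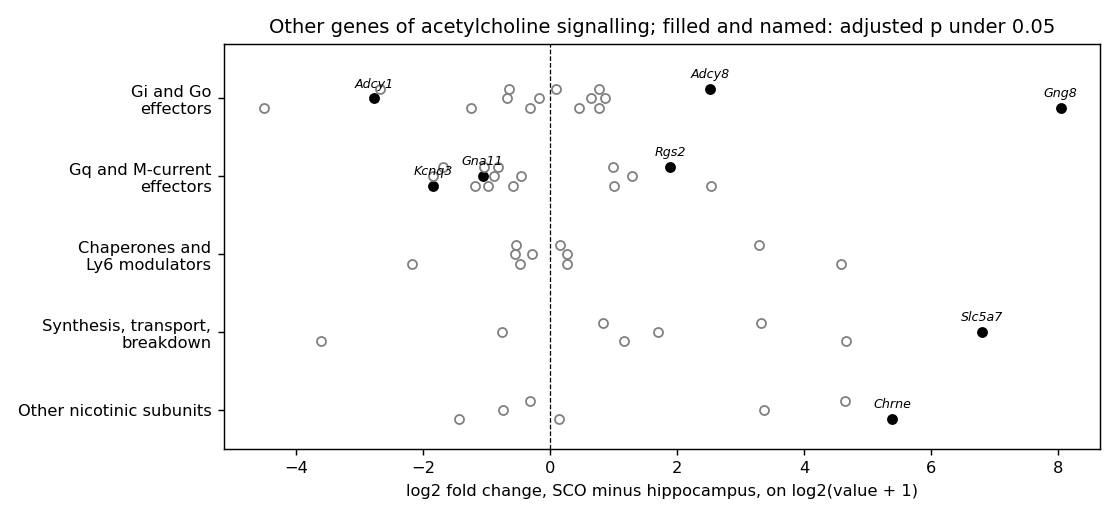
Log2 fold change, SCO minus hippocampus on log2(value + 1), of each tested gene in 5 lists of acetylcholine signalling; filled and named points passed at an adjusted p under 0.05 in limma. Chrne (5.39), Slc5a7 (6.80), Gng8 (8.04), Adcy8 (2.52) and Rgs2 (1.89) lie right of 0, and Adcy1 (-2.77), Kcnq3 (-1.85) and Gna11 (-1.07) left of it.

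For each receptor gene that passed, the genes with the most similar profile over the 9 libraries were found among 14006 genes that averaged 100 or more in the higher tissue, by the root mean square difference of log2(value + 1) after centring each gene. This measure follows the difference between tissues and is a description. Nearest to Chrm1 were Tmem74 (0.78), Insc (0.80) and Dio2 (0.92), all at or near 0 in SCO. Nearest to Chrna3 were Fam214a (0.27), Lars2 (0.37) and Hspa2 (0.40). Chrm2 and Chrna7 had no gene as close, with Hs3st3a1 (0.99) and Ager (1.25) nearest to Chrm2, and Islr2 (0.93) and Zfp518b (1.18) nearest to Chrna7.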

How the data were processed

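The authors deposited a signal per gene and library that is a read count scaled by the library's size factor, per the file headers and the values. Every value was a whole multiple of 1 read (100% within a tolerance of 1e-06), so reads were recovered. FastQC, HISAT, HISAT2, featureCounts, DESeq2 and GRCm38 are named in the submitters' processing notes; their versions, the annotation and the strand setting were not given in the sources used here. Per the labels, RNA came from the RNeasy Micro Kit and libraries from the TruePrep kit. The authors' deposited comparison gives a log2 fold change, a statistic used as a score, and p-values.

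Columns were assigned to tissues from the sample titles, with 0 columns of other samples. The main test was limma-trend (limma 3.58.1, R 4.3.3) on log2(value + 1), a pseudocount of 1. Genes averaging at least 1 in the hippocampus or the SCO libraries entered, with no covariate and Benjamini-Hochberg adjustment over 28150 genes. The table holds normalized values, so edgeR 4.0.16 and DESeq2 1.42.0 on the recovered reads were alternatives, with other pseudocounts, filters, scalings, a replicate block and libraries left out. Tests were checked on simulated data. The 95% intervals of log2 fold changes are from limma and cover variation between libraries. The interval of the Chrm1 ratio and the floors (3 reads) cover counting error only, and reads are not independent molecules. Positions are from GENCODE M21, matched by identifier for 31809 of 31883 genes without the version. All receptor genes are named; of each gene list, those that passed come first, up to 6, and others were named after their values were seen. The receptor genes and gene lists were chosen with earlier results of these data known. Figures used matplotlib 3.10.9.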

Additional observations from a re-analysis of the deposited data

Results flagged for a closer look

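Normalized counts of the receptor members, the other nicotinic subunits and all genes of the 4 pathway lists were screened in each tissue for 1 library far from the others, by Dixon's ratio of the gap to the range, and 21 library values stood out among 121 groups of 4 or 5 libraries whose highest value was at least 10. For normally distributed values, chance would mark about 1 in 20 such groups. These counts often hold zeros beside high values, so that rate need not apply to them.

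Among the receptor genes, Chrna4 was low in SCO 3, at 447, and Chrnb2 was high in the same library, at 2355. Chrnb4 was at 595 in hippocampus 5 and at 0 in the other hippocampus libraries. Among other subunits, Chrna1 stood at 208 in hippocampus 2. Chrna5 stood at 139.7 in hippocampus 4 and at 19.2 in SCO 2. Chrna9 stood at 94.1 in hippocampus 2 and at 13.3 in SCO 2. Chrnb1 reached 1035 in hippocampus 5 and Chrnb3 371 in SCO 2. Among pathway genes, Slc5a7 reached 53.8, Lynx1 121 and Kcnj5 61.8 in hippocampus 4. In hippocampus 2, Ly6h was high at 11392 and Gnai3 low at 2912. Gna14 reached 117 and Plcb2 162 in hippocampus 1, and Lypd1 1439 in hippocampus 5. In SCO, Bche reached 675 in SCO 2, and Kcnj5 814 and Kcnj9 725 in SCO 4. Zeros beside high values were not limited to receptor genes: of 7640 genes with a mean of 100 to 1000 in hippocampus, 16.0% were at 0 in at least 1 of the 5 libraries and 0.183% in at least 4, and of 8114 such genes in SCO 23.2% were at 0 in at least 1 of the 4.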

How the results depend on the processing

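The 859 genes called by limma became 503 with edgeR, 2708 with DESeq2 and 180 with the replicate block, and 498 to 1077 with 1 library left out; the lower counts came without hippocampus 1 (565), hippocampus 3 (498) or SCO 3 (564). The 2 receptor genes called lower were 2 with each library left out, 3 with DESeq2 (Chrm5 added) and 1 (Chrm1) with the replicate block. The 2 called higher were 1 to 2 with 1 library left out, 1 with no filter on low values, 1 without SCO 4 and hippocampus 2 together, 1 with overlapping genes taken off and 0 with the replicate block. In each of these counts of 1, Chrna3 was the gene kept. Libraries with the same replicate number in the titles did not deviate together (correlations of -0.000601, -0.0248, 0.0189 and -0.0289). The column labels share the number 3 for hippocampus 2 and SCO 2 and the number 6 for hippocampus 4 and SCO 3. Those pairs had correlations of -0.0248 and 0.0569. Correlations this small cannot settle whether libraries were paired. The block used 4 replicate numbers from the titles and left out hippocampus 5. With it the adjusted p was 0.0872 for Chrna3, 0.0802 for Chrna7 and 0.0882 for Chrm2. Of 21 alternatives, Chrm1 kept its call in 21, Chrna3 and Chrna7 in 20 each and Chrm2 in 10. Chrnb2 reversed to -1.05 with overlapping genes taken off. That alternative and the gene-span length were chosen after seeing the data. The other scalings moved the median log2 fold change of all genes by less than 0.1. The cause of these changes was not tested. A library at 0 allows up to 3 reads, a normalized count of 1.10 to 4.95 depending on its depth.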
